A study of Mus musculus with 9 samples.

Results

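The 10 mRNAs described here encode aldehyde dehydrogenases, enzymes that oxidise aldehydes to carboxylic acids. They were chosen by gene symbol (Aldh1l1, Aldh1l2, Aldh1a1, Aldh1a2, Aldh2, Aldh3a2, Aldh5a1, Aldh6a1, Aldh7a1 and Aldh9a1) out of 22092 genes in the count files, by a rule that names symbols and uses no measured value, though earlier results of these data were known when the list was drawn up. Each gene was represented by the transcript with the highest CPM (read count scaled to the library total) summed over the 9 libraries. All libraries held polysome mRNAs of mice aged 2 months of the strain Aldh1L1 JD130, genotype tg:Aldh1L1-L10aGFP. In these mice a GFP-tagged ribosomal protein, L10a, is made under the regulatory sequences of Aldh1l1, so that translating ribosomal affinity purification (TRAP) with GFP antibodies recovers ribosome-bound mRNAs of the cells in which Aldh1l1 is active. Whole astrocyte TRAP used Brain (n = 3 libraries, 1 brain each, choroid plexus removed) and endfeet TRAP used Purified brain vessels, which carry the perivascular endfeet of astrocytes (n = 6 libraries, each from the vessels of 8 pooled mice). Both groups carried the transgene, and neither included an untagged or total RNA sample. The comparison asked which of these mRNAs were relatively higher or lower in endfeet TRAP than in whole astrocyte TRAP. Without an untagged sample, mRNAs on tagged ribosomes and RNA carried along without the tag cannot be told apart.

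Aldehyde dehydrogenases work in several metabolic routes. ALDH1L enzymes release tetrahydrofolate from 10-formyltetrahydrofolate, ALDH1A enzymes make retinoic acid from retinaldehyde, and mitochondrial members take part in the breakdown of GABA, valine and lysine. Aldh1l1 is widely used as a general marker of astrocytes, and in the brain Aldh1a2 is best known from the meninges.

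Gene totals ran from 35984144 to 43521208 counts in whole astrocyte TRAP and from 2319495 to 13450588 in endfeet TRAP, so that 3 counts, the smallest level taken as detectable, stood for 0.0689 to 0.0834 CPM in the former and 0.223 to 1.29 in the latter. The common dispersion (squared biological coefficient of variation) came to 0.0134 over the whole astrocyte libraries and 0.338 over the endfeet libraries. Markers of other cells moved with the comparison. edgeR (adjusted p of 0.05) called higher in endfeet TRAP all 12 markers of meningeal and perivascular fibroblasts (summed level 988 to 1503 normalised counts against 21588 to 42781), 7 of 9 of arachnoid barrier cells, all 10 of endothelial cells, all 9 of mural cells, 7 of 10 of microglia and macrophages, 6 of 7 of choroid plexus epithelium (950.5 to 19597 against 86890 to 1175847) and 5 of 6 of ependymal cells. Of 12 astrocyte markers 1 was called higher (Aqp4, the water channel of endfeet) and 4 lower (S100b, Acsbg1, Sox9, Gjb6), with a median log2 fold change of -0.27. None of 8 neuronal markers was higher and 3 were lower, 1 of 8 oligodendrocyte markers was higher and 1 lower, and of 3 tested dopaminergic neuron markers 1 was higher. No astrocyte or fibroblast marker was at 0 throughout either group. In such bulk samples fewer cells of a type and less RNA per cell cannot be told apart, and the part of these other cells in the changes below was not tested.

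Every member had at least 29 counts in every library and all 10 entered the test of 14427 genes. Against whole astrocyte TRAP, 5 members were lower in endfeet TRAP (Aldh1l1, Aldh1a1, Aldh5a1, Aldh6a1, Aldh7a1), 1 was higher (Aldh1a2) and 4 did not pass (Aldh1l2, Aldh2, Aldh3a2, Aldh9a1). These calls came from edgeR's quasi-likelihood test at a Benjamini-Hochberg adjusted p of 0.05 over all genes tested, of which 13.9% were called lower, 20.7% higher and 34.6% in either direction. With limma voom and a weight for each group, whose spread differed, 8 members were lower beside 31.1% of all genes tested. The median log2 fold change of the members was -1.35, beside 0.10 over all genes tested. For 5 members every endfeet library lay below every whole astrocyte library, an order seen in 23.3% of all tested genes. The reverse order held for Aldh1l2 and Aldh1a2 and was seen in 19.1% of tested genes.

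**Figure D1:**
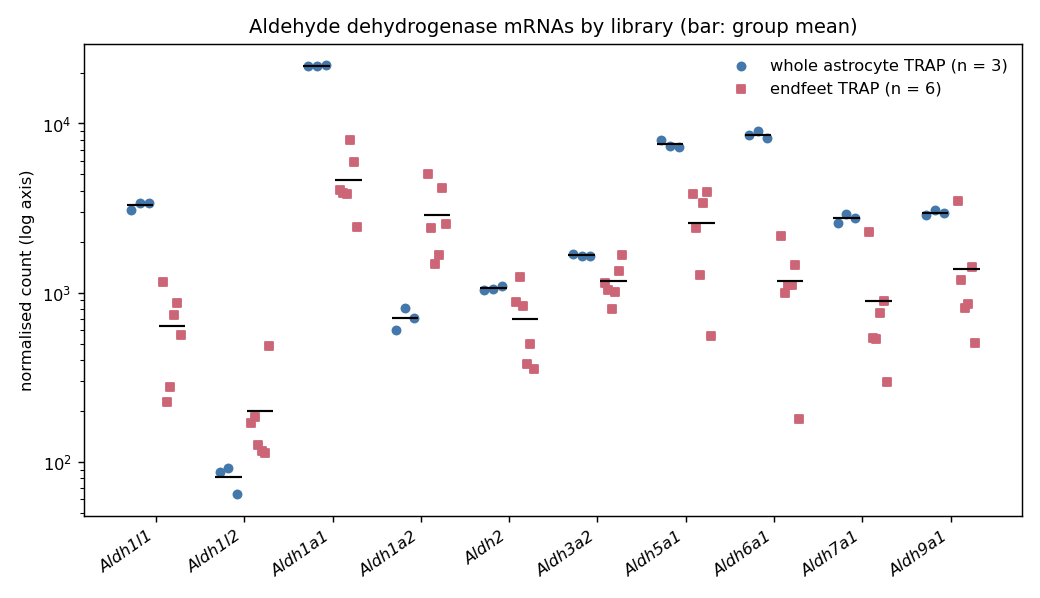
Normalised counts (raw count divided by a DESeq2 size factor, log axis) of the 10 members in 3 whole astrocyte TRAP libraries (circles) and 6 endfeet TRAP libraries (squares), with bars at the group means. The endfeet libraries lie below the whole astrocyte libraries for Aldh1l1, Aldh1a1, Aldh5a1, Aldh6a1 and Aldh7a1 and above them for Aldh1l2 and Aldh1a2, and they spread more widely.

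The upstream regions of 3 members are printed because they belong to the gene that drives the tag and to the retinaldehyde dehydrogenases that changed in opposite directions. Each run holds the 250 bases before the annotated start, 5′ to 3′ on the plus strand, from RefSeq on GRCm38.p6. They lie at chr6:90550543-90550792 for Aldh1l1, chr19:20601718-20601967 for Aldh1a1 and chr9:71215539-71215788 for Aldh1a2, and those starts fall 4, 7 and 0 bases from the starts of the counted transcripts. Capitals mark matches, on either strand, to the letters TATAAA of the core promoter, to CCAAT, which the factor NF-Y binds, to GGGCGG, which Sp1 binds, to CACGTG, known as the E-box, and to AGGTCA, which nuclear receptors bind. No overlap between motifs was found in these runs.
Aldh1l1: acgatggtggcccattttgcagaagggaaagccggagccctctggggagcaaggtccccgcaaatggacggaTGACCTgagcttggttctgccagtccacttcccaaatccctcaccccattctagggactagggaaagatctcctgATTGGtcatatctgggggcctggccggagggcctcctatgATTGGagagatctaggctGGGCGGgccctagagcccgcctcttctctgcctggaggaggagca
Aldh1a1: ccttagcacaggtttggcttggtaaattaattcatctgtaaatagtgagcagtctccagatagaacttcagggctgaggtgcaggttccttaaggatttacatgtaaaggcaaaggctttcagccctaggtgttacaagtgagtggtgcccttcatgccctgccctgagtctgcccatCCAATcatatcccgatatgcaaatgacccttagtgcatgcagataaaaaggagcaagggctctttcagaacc
Aldh1a2: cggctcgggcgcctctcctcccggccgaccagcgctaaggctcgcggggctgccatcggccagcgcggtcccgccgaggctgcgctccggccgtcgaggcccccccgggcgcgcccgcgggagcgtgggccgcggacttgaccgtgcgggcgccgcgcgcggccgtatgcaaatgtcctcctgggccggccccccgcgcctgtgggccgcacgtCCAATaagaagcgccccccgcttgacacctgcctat
The Aldh1l1 region held CCAAT in 2 places on the minus strand, GGGCGG once and AGGTCA once on the minus strand. Aldh1a1 and Aldh1a2 each held CCAAT once on the plus strand, and no run held TATAAA and none held CACGTG. Among 32817 upstream regions of the same length, 33.8% held CCAAT, 32.7% GGGCGG, 14% AGGTCA, 12.4% TATAAA and 6.02% CACGTG. The base composition differed, with 77.6% G and C in the Aldh1a2 region against 46.4% in that of Aldh1a1 and 59.6% in that of Aldh1l1. The RefSeq table held 7 of the 10 members and lacked Aldh1l2, Aldh2 and Aldh7a1.

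Aldh1l1 encodes the cytosolic 10-formyltetrahydrofolate dehydrogenase and lies on mouse chromosome 6 at 90486427 to 90600203 (plus strand, mm10), with a counted transcript of 23 exons and 4175 bases. In whole astrocyte TRAP its normalised counts (raw counts divided by DESeq2 size factors) were 3083, 3387 and 3388, and in endfeet TRAP they ran from 225 through a median of 652 to 1161. No endfeet library reached the lowest whole astrocyte library. The mean fell from 3286 ± 176 (SD, n = 3) to 639 ± 358 (SD, n = 6), a log2 fold change of -2.38 ± 0.43 (SE), with an adjusted p of 0.000936 in edgeR. Endfeet libraries 2 and 3 held the least. An antisense gene on the opposite strand, Gm15756, covered 10.5% of the counted transcript, and the strand setting of the counting is not given in the sources used here.

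Aldh1l2 encodes the mitochondrial counterpart of that enzyme and lies on chromosome 10 at 83487450 to 83534140 (minus strand), with a counted transcript of 23 exons and 6027 bases. Its normalised counts were 86.8, 92.5 and 64.4 in whole astrocyte TRAP and ran from 113 through a median of 147 to 482 in endfeet TRAP. Every endfeet library lay above every whole astrocyte library, and endfeet library 6 stood far above the others, of which the highest was at 184. The means were 81.2 ± 14.9 (SD, n = 3) and 199 ± 142 (SD, n = 6), and the log2 fold change of 1.24 ± 0.68 (SE) did not pass the test (edgeR adjusted p = 0.178). Without endfeet library 6 it was 0.80 (adjusted p = 0.260 in edgeR). At its 3′ end the counted transcript shared 1056 exonic bases, 17.5% of its length, with D10Wsu102e on the opposite strand. Counts of D10Wsu102e were 5281 in endfeet library 6 and 1065 to 1549 in the other endfeet libraries, and the part of these reads in the Aldh1l2 value was not tested. The shorter coding transcript Aldh1l2-206, which has no exon in common with D10Wsu102e, had a log2 fold change of 1.40 ± 0.88 (SE, edgeR adjusted p = 0.263 with each transcript as a feature). Normalised counts on Aldh1l2-206 were 322 in endfeet library 6 and 36.8 to 77.6 in the other endfeet libraries.

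The relation between the cytosolic and the mitochondrial formyltetrahydrofolate dehydrogenase differed between the groups. Within each library, where no scaling between libraries enters, Aldh1l1 had 35.4 to 52.5 counts per Aldh1l2 count in whole astrocyte TRAP and 1.17 to 7.61 in endfeet TRAP. All 6 endfeet libraries lay below all 3 whole astrocyte libraries. The opposite orders of the single genes, given above, had already fixed this separation, so the test that follows adds no separate support. The mean log2 ratio differed by -3.68 between endfeet and whole astrocyte TRAP (two-sided exact permutation test, p = 0.0119, which is the least possible with 84 splits, or 0.0179 when adjusted by Benjamini-Hochberg for the 3 ratios tested).

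Other genes of folate-dependent one-carbon metabolism did not move one way. Of 24 listed genes 22 were tested, 3 were higher and 3 lower, with a median log2 fold change of 0.22. The counts for this and the lists that follow stand beside 20.7% higher and 13.9% lower among all genes tested, with a median of 0.10, and no list was tested as a group. Those higher included the reduced folate carrier Slc19a1 (3.90 ± 0.52, SE) and the folate-trimming hydrolase Ggh (1.87 ± 0.61). Slc19a1 rose from 48.9, 57.4 and 80.8 normalised counts to between 605 and 1518. The lower ones were Gldc (-3.15 ± 0.62) and Gcsh (-2.68 ± 0.45), which belong to the glycine cleavage system, and Mthfd1 (-1.46 ± 0.43), the cytosolic enzyme that makes 10-formyltetrahydrofolate. Gldc fell from 1328 to 1334 normalised counts to between 24.7 and 439.

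Aldh1a1 encodes a cytosolic retinaldehyde dehydrogenase and lies on chromosome 19 at 20492715 to 20643465 (plus strand), with a counted transcript of 13 exons and 2053 bases. It was the most abundant member by far, with 21838, 21969.9 and 22026 normalised counts in whole astrocyte TRAP, which were nearly equal. In endfeet TRAP the counts ran from 2443 through a median of 3938 to 7932, so that the groups did not overlap. The mean fell from 21945 ± 96.9 (SD, n = 3) to 4660.4 ± 1943 (SD, n = 6), a log2 fold change of -2.24 ± 0.32 (SE, edgeR adjusted p = 0.000157). Of the stretches of 50 bases (the read length) in its transcript, 7.53% also occurred in the paralogue Aldh1a7, whose own counts were low.

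Aldh1a2, the retinaldehyde dehydrogenase known from the meninges, was the one member called higher. It lies on chromosome 9 at 71215789 to 71296243 (plus strand), and its counted transcript has 14 exons and 2264 bases. Its normalised counts were 598, 814 and 709 in whole astrocyte TRAP and ran from 1480.1 through a median of 2470.2 to 5057 in endfeet TRAP. Every endfeet library exceeded every whole astrocyte library, with library 1 and library 5 the highest. The mean rose from 707 ± 108 (SD, n = 3) to 2880.3 ± 1417 (SD, n = 6), a log2 fold change of 2.00 ± 0.42 (SE, edgeR adjusted p = 0.00236). Neither an overlapping exon nor a shared stretch of 50 bases was found for this transcript. The fibroblast marker Dcn (95.1, 140.5 and 154 against 2395 to 5337) and the arachnoid marker Slc22a6 (93.0, 202 and 169 against 1354 to 3896) rose as well, with log2 fold changes of 4.88 and 3.84. On the arachnoid list Crabp2 (-0.33) and Cldn11 (0.90) were not called. Whole astrocyte library 1 was the lowest of its group for Aldh1a2, Dcn and Slc22a6. The highest was library 2 for Aldh1a2 and Slc22a6 but library 3 for Dcn. The part of fibroblasts and arachnoid cells in the Aldh1a2 value was not tested.

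The balance of the retinaldehyde dehydrogenases shifted accordingly. Aldh1a2 had 0.0274 to 0.0370 counts per Aldh1a1 count in whole astrocyte TRAP and 0.212 to 1.26 in endfeet TRAP, where libraries 1 and 6 held more Aldh1a2 than Aldh1a1 counts. The mean log2 ratio rose by 4.23 (two-sided exact permutation test, p = 0.0119, adjusted p = 0.0179 over the 3 ratios). Here too the opposite orders of the single genes had fixed the separation of the groups, and the test adds no separate support. The ratio of Aldh1a1 to Aldh1l1, both of which fell, ran from 6.49 to 7.08 in whole astrocyte TRAP and from 3.46 to 17.1 in endfeet TRAP. These ranges overlapped, and the difference of 0.25 in the mean log2 ratio did not pass (exact permutation p = 0.643).

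**Figure D2:**
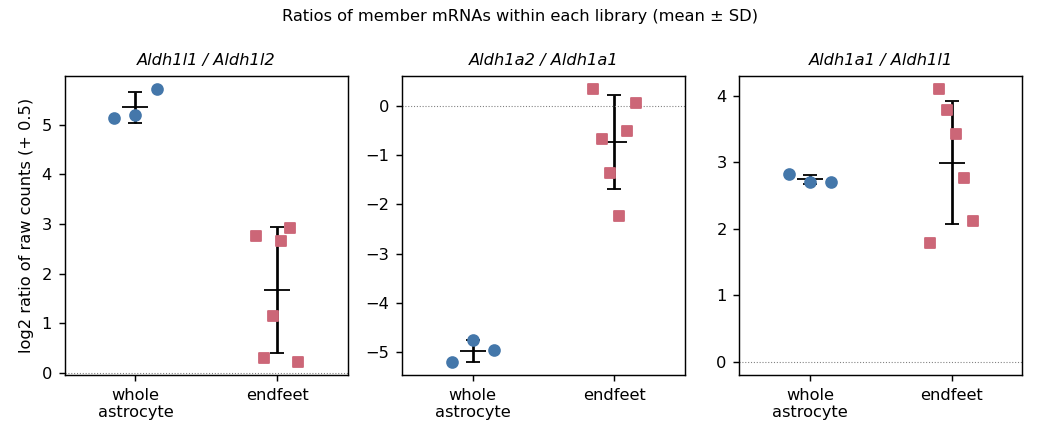
Log2 ratios of raw counts (with 0.5 added to each count) within each library for Aldh1l1 over Aldh1l2, Aldh1a2 over Aldh1a1 and Aldh1a1 over Aldh1l1, with mean and SD per group and a separate vertical axis in each panel. The groups are apart for the first and second ratio, by -3.68 and 4.23 on average, and overlap for the third.

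Among 21 listed genes of retinoid handling 16 were tested, 3 rose and 1 fell, and the median log2 fold change was 0.03. The retinol uptake receptor Stra6 rose from 20.7, 41.9 and 29.1 normalised counts to between 1058 and 2634 (log2 fold change 5.74 ± 0.48, SE, edgeR adjusted p = 2.12e-06). Rdh10, which makes retinaldehyde from retinol, rose from 248, 203 and 239 to between 466 and 1285 (1.95 ± 0.45). Cyp26b1, which degrades retinoic acid, rose by 2.42 ± 0.84, and its endfeet libraries, at 43.3 to 535, overlapped the whole astrocyte libraries at 39.3 to 62.1. The third retinaldehyde dehydrogenase, Aldh1a3, was at 2.03 to 3.05 in whole astrocyte TRAP and at 0 in endfeet libraries 4 and 6 but 464 in endfeet library 1, and did not pass (adjusted p = 0.0572 in edgeR).

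Aldh6a1 encodes the methylmalonate semialdehyde dehydrogenase of valine and thymine breakdown and lies on chromosome 12 at 84430717 to 84451004 (minus strand). It had 8503, 9024 and 8200.1 normalised counts in whole astrocyte TRAP and 179 to 2159 in endfeet TRAP, with a median of 1103. The lowest value was that of endfeet library 6, where 29 reads were counted. The mean fell from 8576 ± 417 (SD, n = 3) to 1167 ± 646 (SD, n = 6), a log2 fold change of -2.88 ± 0.48 (SE, edgeR adjusted p = 0.000464), the greatest change of any member. Bbof1 on the opposite strand overlapped 9.89% of its counted transcript.

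Around Aldh6a1, 22 genes of the breakdown of branched-chain amino acids and propionate were tested, of which 10 fell, none rose and 12 did not pass. Their median log2 fold change was -1.43, beside 13.9% lower and a median of 0.10 among all genes tested. The greatest falls were those of the enoyl-CoA hydratase Echs1 (-2.89 ± 0.37, SE), the methylmalonyl-CoA epimerase Mcee (-2.59 ± 0.51), the 3-hydroxyisobutyrate dehydrogenase Hibadh, whose product is the substrate of ALDH6A1 (-2.48 ± 0.36), and Dbt, a subunit of the branched-chain ketoacid dehydrogenase (-2.35 ± 0.51). Hibadh fell from 2511, 2745 and 2496 normalised counts to between 250.3 and 837. The remaining 12 genes had log2 fold changes between -1.87 and 0.23 and did not pass.

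Aldh5a1 encodes the succinic semialdehyde dehydrogenase that ends GABA breakdown and lies on chromosome 13 at 24907579 to 24937661 (minus strand). It had 7989, 7343 and 7298 normalised counts in whole astrocyte TRAP and 557 to 3950.4 in endfeet TRAP, with a median of 2897. The groups did not overlap, and endfeet library 6 was again the lowest. The mean fell from 7543 ± 386 (SD, n = 3) to 2567 ± 1409 (SD, n = 6), a log2 fold change of -1.56 ± 0.46 (SE, edgeR adjusted p = 0.0195). Leaving out whole astrocyte library 1, 2 or 3 gave adjusted p values of 0.0681, 0.0531 and 0.0533 in edgeR, none of which passed. The opposite-strand genes 4932702P03Rik and 9330162012Rik overlapped 14.1% and 3.59% of its transcript.

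Of 8 genes of GABA uptake and breakdown 2 fell and 1 rose. Abat, the transaminase that supplies the substrate of ALDH5A1, fell from 11379, 10937 and 10957 normalised counts to between 2809 and 7577 (-1.40 ± 0.30, SE), and the glutamate dehydrogenase Glud1 fell by 2.24 on the log2 scale. The transporter Slc6a13, also on the list of arachnoid barrier markers, rose from 83.0, 131 and 156 to between 1262 and 3729.5 (4.15 ± 0.48). The astrocyte transporter Slc6a11 (0.40 ± 0.35) did not pass.

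Aldh7a1 encodes the alpha-aminoadipic semialdehyde dehydrogenase of lysine breakdown, on chromosome 18. Its normalised counts were 2568, 2932 and 2774 in whole astrocyte TRAP and ran from 297 through a median of 652 to 2292 in endfeet TRAP. Endfeet library 1, at 2292, lay close to the whole astrocyte libraries and the other endfeet libraries lay at 897 or below. The mean fell from 2758 ± 183 (SD, n = 3) to 887 ± 718 (SD, n = 6), a log2 fold change of -1.65 ± 0.49 (SE, edgeR adjusted p = 0.0185). Leaving out whole astrocyte library 1, 2 or 3 gave adjusted p values of 0.0528, 0.0623 and 0.0570 in edgeR. Without endfeet library 1 the log2 fold change was -2.18 (adjusted p = 0.00043 in edgeR). Phax on the opposite strand overlapped 7.26% of the counted transcript.

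The log2 fold changes of the Aldh7a1 transcripts were not the same size. Their difference was not tested, and reads in common exons count for several transcripts. The counted one, Aldh7a1-208, starts earlier and ends later than the other coding transcripts of the gene. Counts on Aldh7a1-201, which lies within its span, came to 83.1% to 85.7% of the counts on Aldh7a1-208 in whole astrocyte TRAP and to 19.1% in endfeet library 1, 49.4% to 73.6% in endfeet libraries 2 to 5 and 100% in endfeet library 6. Its log2 fold change was -2.36 ± 0.33 (SE, edgeR adjusted p = 0.000183 with each transcript as a feature, where 10.1% of 51506 transcripts were lower and 15.6% higher), against -1.55 ± 0.49 for Aldh7a1-208 in the same fit. A wider set held 1617 genes with at least 50 counts in every library on the counted transcript. Each had a second coding transcript that starts within 500 bases of the counted one and ends at least 500 bases earlier. Counts on the second were taken as a percentage of those on the counted one, and reads in common exons enter both. The median was 24.9% to 27.0% in whole astrocyte TRAP and 20.3% to 22.9% in endfeet TRAP, lowest in endfeet library 1. The part of this difference in the Aldh7a1 values was not tested. Aldh7a1 itself, with 48 counts in endfeet library 6, was not among the 1617 genes.

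Of 9 listed genes of lysine breakdown 8 were tested and 1 fell, with a median log2 fold change of -0.87. This was Crym, which encodes a ketimine reductase that also binds thyroid hormone and went from 1259.8, 1252 and 1348 normalised counts to between 5.86 and 173 (-4.01 ± 0.75, SE). Aass, the first enzyme of the saccharopine route, had a log2 fold change of -2.37 ± 0.93 that did not pass.

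Aldh2, the mitochondrial enzyme that oxidises acetaldehyde and aldehydes of lipid peroxidation, lies on chromosome 5 at 121566027 to 121593824 (minus strand). Its normalised counts were 1034, 1056 and 1088 in whole astrocyte TRAP and ran from 352 through a median of 669 to 1233 in endfeet TRAP. Endfeet library 2 lay above all whole astrocyte libraries and the other 5 below them. The log2 fold change was -0.62 ± 0.42 (SE) and did not pass (edgeR adjusted p = 0.274). Endfeet libraries 1 to 3, at 839 to 1233, lay above endfeet libraries 4 to 6, at 352 to 499, and with the latter alone the log2 fold change was -1.52 (adjusted p = 0.0044 in edgeR), against -0.14 (adjusted p = 0.686) with the former alone. The numbers on the deposited files of endfeet libraries 4 to 6 run on from those of the whole astrocyte libraries, and the labels name no batch. Counts on the shorter coding transcript Aldh2-202 were 38.2% to 41.8% of those on the counted one in whole astrocyte TRAP and 8.64% to 33.1% in endfeet TRAP.

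Of 14 tested genes of aldehyde, alcohol and monoamine oxidation 7 were lower and 2 higher, beside 13.9% and 20.7% of all genes tested, and the median log2 fold change was -1.27. The carbonyl reductases Cbr3 (-3.39 ± 0.90, SE) and Cbr1 (-2.16 ± 0.59), the monoamine oxidase Maob, found in astrocytes (-2.09 ± 0.29), and Adh5, which removes formaldehyde (-1.74 ± 0.33), showed the greatest falls. Maob went from 3549.7, 3499 and 3366 normalised counts to between 575 and 1372. The alcohol dehydrogenase Adh1 rose from 0.344, 6.75 and 5.27 to between 55.7 and 606 (edgeR adjusted p = 0.00456). Cyp2e1, an ethanol-oxidising cytochrome, was at 0.344 (1 count) in 1 whole astrocyte library and at 0 in the others, which gives no usable fold. In endfeet TRAP it was at 3.02 to 797 (edgeR adjusted p = 0.00323). It passed the filter on low counts through endfeet TRAP alone, so its call adds no separate support.

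Aldh3a2, the fatty aldehyde dehydrogenase, lies on chromosome 11 at 61223417 to 61267464 (minus strand). It had 1698, 1647 and 1642 normalised counts in whole astrocyte TRAP and 806 to 1676 in endfeet TRAP, with a median of 1093. Only endfeet library 6 reached the whole astrocyte range. The log2 fold change of -0.53 ± 0.28 (SE) did not pass (edgeR adjusted p = 0.152). Without endfeet library 6, the shallowest, it was -0.64 and passed (adjusted p = 0.0483 in edgeR). Counts on the transcript Aldh3a2-203 were 31.2% to 33.5% of those on the counted one in whole astrocyte TRAP and 8.49% to 26.5% in endfeet TRAP.

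Around it, 4 of 10 genes of sphingosine phosphate and fatty aldehyde turnover rose and 2 fell. Those that rose were the fatty acyl-CoA reductase Far2 (3.28 ± 0.44, SE), the sphingosine phosphate lyase Sgpl1, which yields the substrate hexadecenal (2.64 ± 0.61), the ceramide synthase Cers2 (2.33 ± 0.31) and the phosphatase Sgpp1 (2.25 ± 0.45). Sgpl1 rose from 150.2, 158 and 179 normalised counts to between 489 and 2787. The phytanoyl-CoA hydroxylase Phyh (-2.37 ± 0.37) and the sphingosine kinase Sphk2 (-1.20 ± 0.36) fell.

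Aldh9a1, which oxidises trimethylaminobutyraldehyde in carnitine synthesis, lies on chromosome 1 at 167349991 to 167368532 (plus strand). Its normalised counts were 2872, 3065 and 2953 in whole astrocyte TRAP and ran from 507 through a median of 1021 to 3467 in endfeet TRAP. Endfeet library 1 lay above every whole astrocyte library and the other 5 endfeet libraries below all of them, at 1412 or less. The log2 fold change of -1.13 ± 0.47 (SE) did not pass (edgeR adjusted p = 0.0786), and without endfeet library 1 it was -1.63 and passed (adjusted p = 0.00192 in edgeR). Of 4 tested genes of carnitine synthesis and uptake the carnitine transporter Slc22a5 rose from 9.65, 11.1 and 21.1 to between 50.3 and 290.0 (3.26 ± 0.93, SE). Bbox1, the last enzyme of the route, had a log2 fold change of -1.96 ± 0.89 that did not pass.

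**Figure D3:**
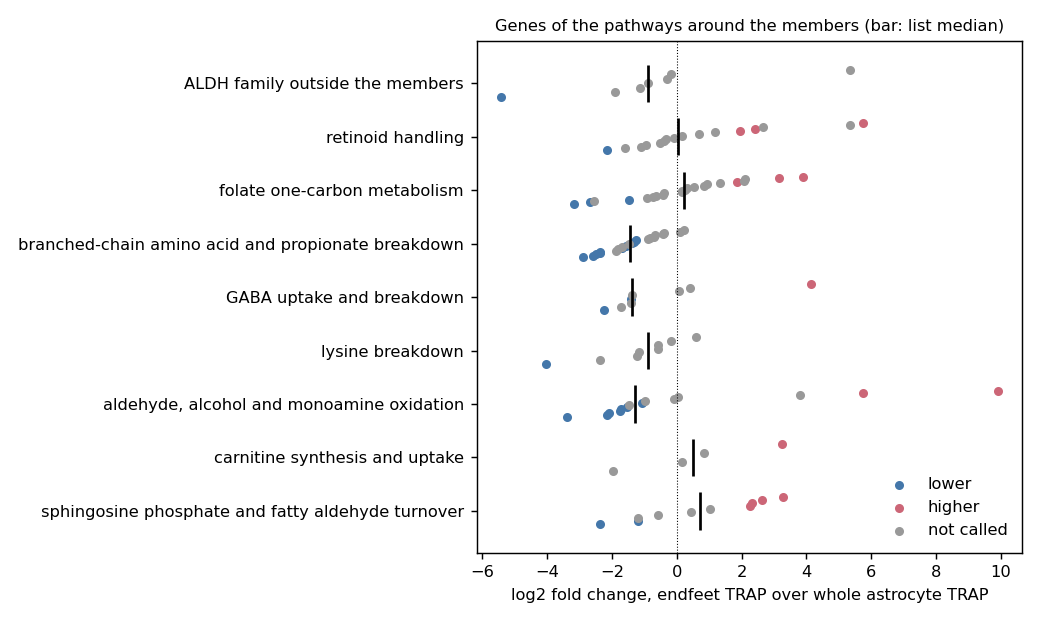
Log2 fold changes in edgeR (endfeet TRAP over whole astrocyte TRAP) of the tested genes in 9 lists around the members, coloured by call, with a bar at each list's median. The medians run from -1.43 for branched-chain amino acid and propionate breakdown, where 10 of 22 genes are lower and none is higher, to 0.73 for sphingosine phosphate and fatty aldehyde turnover. The fitted values of Cyp2e1 and Aldh1b1 rest on 1 count in whole astrocyte TRAP and 1 count in endfeet TRAP, respectively. Both depend on the small constant that edgeR adds.

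Of the 11 listed genes of the family outside the members, 7 were tested and 1 was called. Aldh1b1, a mitochondrial relative of Aldh2, was lower (edgeR adjusted p = 0.00325), with 11.1 to 13.1 normalised counts in whole astrocyte TRAP, 0.831 in endfeet library 3 (1 count) and 0 in the other endfeet libraries, too few for a fold. Aldh4a1, of proline breakdown, was at 661 to 691 in whole astrocyte TRAP and 63.8 to 656 in endfeet TRAP (log2 fold change -1.14 ± 0.60, SE), and did not pass. The others were Aldh1a7 (-1.91), Aldh16a1 (-0.87), Aldh3b1 (-0.31), Aldh18a1 (-0.17) and Aldh1a3, none of which passed (adjusted p of 0.0572 to 0.877 in edgeR). Aldh3a1, Aldh3b2, Aldh3b3 and Aldh8a1 were too low to be tested.

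**Figure D4:**
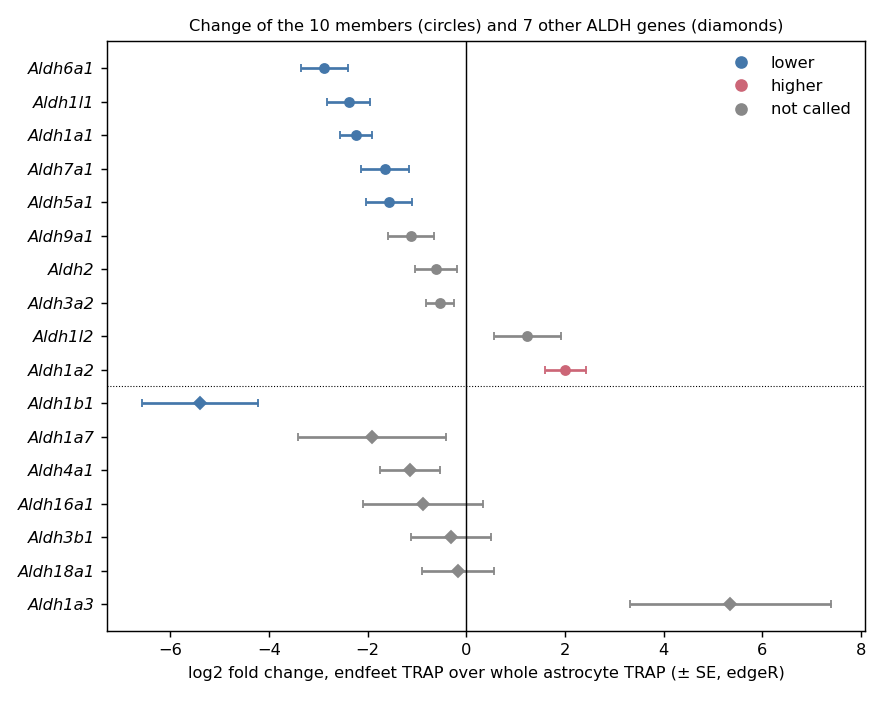
Log2 fold change in edgeR, endfeet TRAP over whole astrocyte TRAP, with SE, of the 10 members (circles, above the dotted line) and 7 further aldehyde dehydrogenase genes (diamonds), coloured by call. The fitted value of Aldh1b1 rests on 1 count in endfeet TRAP and depends on the small constant that edgeR adds. Aldh6a1, at -2.88, Aldh1l1, at -2.38, and Aldh1a1, at -2.24, lie farthest to the left of the members, and Aldh1a2, at 2.00, is alone on the right among those called.

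Levels of different genes were compared as normalised counts per kb of the counted transcript. Aldh1a1 stood at 10689 per kb on average in whole astrocyte TRAP, position 27 of 22092 genes, followed by Aldh6a1 (2523), Aldh5a1 (1336), Aldh9a1 (1045), Aldh1l1 (787), Aldh7a1 (668), Aldh3a2 (538), Aldh1a2 (312), Aldh2 (274) and Aldh1l2 (13.5). In that order the ranges of neighbours over the 3 libraries did not overlap, except for Aldh1a2 and Aldh2. The order depends on the length used: with the summed exon length of each gene Aldh3a2 came below Aldh1a2 in whole astrocyte TRAP (1.67% against 1.76% of the summed level of the members). In endfeet TRAP the order was Aldh1a1 (2270.0), Aldh1a2 (1272), Aldh9a1 (485), Aldh5a1 (455), Aldh3a2 (378), Aldh6a1 (343), Aldh7a1 (215), Aldh2 (180.2), Aldh1l1 (153) and Aldh1l2 (32.9), and the ranges of all neighbours overlapped. Within the libraries, Aldh1a2 exceeded Aldh9a1 in 6 of 6 and Aldh1a1 exceeded Aldh1a2 in 5 of 6. Aldh1l1 moved from position 1148 of all genes in whole astrocyte TRAP to 5300 in endfeet TRAP, Aldh6a1 from 238 to 2376, and Aldh1a2 from 2894 to 369.

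The summed level of the 10 members was 18022 to 18439 per kb in whole astrocyte TRAP and 3557 to 8187 in endfeet TRAP. Its make-up was nearly the same in the 3 whole astrocyte libraries, with 58.8% ± 0.66 (SD, n = 3) from Aldh1a1, 13.9% ± 0.53 from Aldh6a1 and 1.72% ± 0.24 from Aldh1a2. In endfeet TRAP Aldh1a1 made up 39.8% ± 11.6 (SD, n = 6), Aldh6a1 5.66% ± 2.37 and Aldh1a2 22.1% ± 7.44. The Aldh1a2 share lay between 11.2% and 31.4% in endfeet libraries and between 1.47% and 1.95% in whole astrocyte libraries, without overlap. For Aldh1a1 endfeet library 4, at 58.2%, reached the whole astrocyte range of 58.0% to 59.3%. The mean share of Aldh5a1 was 7.35% ± 0.44 over the whole astrocyte libraries and 7.30% ± 2.62 over the endfeet libraries, which singly ran from 2.77% to 9.55%.

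**Figure D5:**
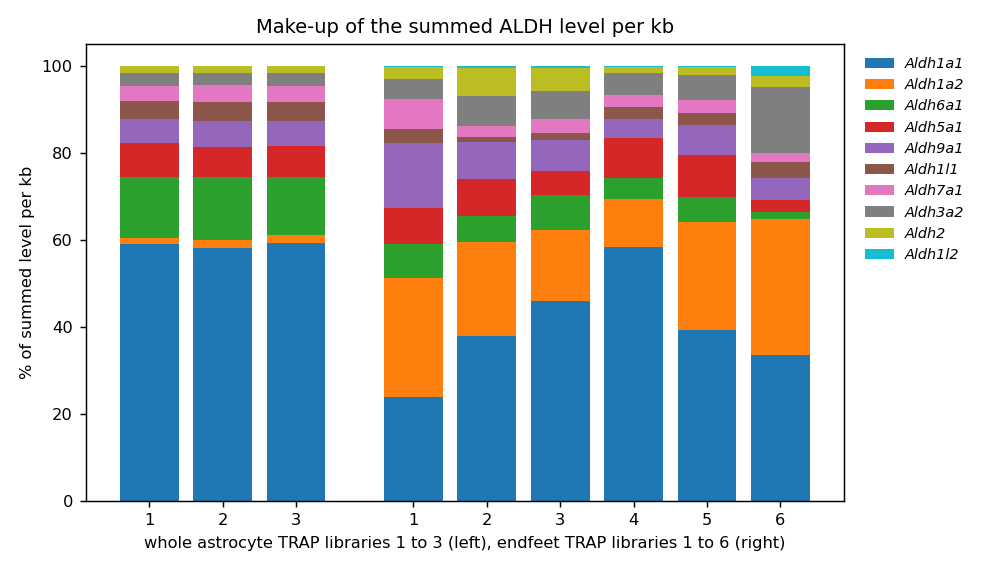
Share of each member in the summed level per kb of all 10, in percent, for 3 whole astrocyte TRAP libraries (left) and 6 endfeet TRAP libraries (right). Aldh1a1 holds about 58% to 59% in each whole astrocyte library and 23.9% to 58.2% in the endfeet libraries, where Aldh1a2 holds 11.2% to 31.4%.

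For 3 members the genes with the most similar profile over the 9 libraries were sought among all tested genes, by the root mean square distance between log2(normalised count + 1) values centred on each gene's mean. Nearest to Aldh1l1 were Teddm2 (0.27), Pfkm (0.29) and Plekhb1 (0.33). Nearest to Aldh1a1 were Ss18l2 (0.17), Ppil3 (0.18) and Elmo2 (0.19). Among the nearest to Aldh1a2 were Ddx58 (0.26) and Slc38a3 (0.28). These genes share libraries, depth and the group contrast with the members, and likeness of profile is a description only.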

How the data were processed

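Ribosome-bound mRNA was measured in 9 libraries. As described by the authors, 10 ng of RNA was amplified with the NuGEN Ovation system and read as 50 bp reads; Eoulsan filtered them, Bowtie 0.12.9 aligned them to mm10, reads aligned more than once were removed, and HTSeq-count 0.5.3 counted overlaps with Ensembl 75. The deposited values are raw counts per transcript, neither normalised nor filtered. Here 73164 of 75466 transcript identifiers were matched to GENCODE M21, and 1 transcript stood for each gene. The members and lists were chosen with earlier results of these data known. Of each list up to 4 called genes a direction, by size of change, were named, and some genes that this rule or the profile search picked are not reported here. edgeR 4.0.16 (TMM, filterByExpr, R 4.3.3) was fitted on all genes; DESeq2 1.42.0 supplied size factors and, with limma 3.58.1 voom, alternative tests; other filters on low counts, summed or longest transcripts, a replicate block and left-out libraries were also tried. In simulated counts edgeR recovered 52 of 100 genes lowered by a log2 of 2 and all 100 lowered by 4. These figures hold for the simulation only. The measured groups differed widely in spread, and the power to find such changes between them was not tested. Replicate libraries are separate animals or pools as the study describes. Each SE of an edgeR log2 fold change was back-calculated, as its absolute value divided by the square root of the quasi-likelihood F statistic. Floors of 3 counts cover counting error only. Library numbers did not pair the samples.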

Additional observations from a re-analysis of the deposited data

Results flagged for a closer look

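Some single libraries stood apart from the other 5 of their group, by the gap to the nearest library divided by the range of the group. The ratio was taken on normalised counts without a log, and other libraries can stand apart on a log scale. It lay above Dixon's critical value for 6 values, which chance exceeds in about 1 in 20 groups of normally distributed values. Whether these counts are so distributed was not tested. Aldh1l2 in endfeet library 6 was at 482 normalised counts. Aldh7a1 in endfeet library 1 was at 2292 and Aldh9a1 in the same library at 3467. Endfeet library 6 was the shallowest and endfeet library 1 the next, and the part of depth was not tested. On the scale without a log the other 7 members had no such library in endfeet TRAP, and groups of 3 were not examined.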

How the results depend on the processing

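Each member's log2 fold change was recomputed under 19 other settings and none turned its direction. Aldh1l1, Aldh1a1, Aldh1a2 and Aldh6a1 passed in all of them (log2 fold changes of -3.01 to -2.15, -2.60 to -2.10, 1.75 to 2.12 and -3.34 to -2.66) and Aldh1l2 in none. Aldh5a1 did not pass when endfeet libraries 1 to 3 were dropped (edgeR adjusted p = 0.0711) and Aldh7a1 when endfeet libraries 4 to 6 were dropped (0.0818, a setting chosen after seeing the data), nor either without any one whole astrocyte library. Aldh3a2 and Aldh9a1 passed with at least 10 counts in every library (adjusted p = 0.0445 and 0.0244 in edgeR), Aldh3a2 also when endfeet libraries 4 to 6 were dropped (0.0226), and Aldh9a1 as well as Aldh2 passed when endfeet libraries 1 to 3 were dropped (0.00781 and 0.0044). With limma voom and a weight for each group, Aldh2, Aldh3a2 and Aldh9a1 passed too, so that 8 members, 54 genes of the lists and 4485 genes in all were lower (31.1% of those tested) in place of 5, 27 and 2006. With the summed exon length of the gene Aldh1a1 made up 60.4% of the members' level in whole astrocyte TRAP, and Aldh3a2 went from 2.96% to 1.67% there, below Aldh1a2 (1.76%), and from 7.31% to 4.27% in endfeet TRAP, below Aldh6a1 (5.92%). In endfeet TRAP Aldh2 (2.94%) then came above Aldh7a1 (2.84%). The median over all genes tested ran from -0.29 (voom) to 0.23 (DESeq2).

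Leaving out 1 library at a time gave 3 to 6 members lower and always 1 higher, 19 to 38 and 11 to 16 list genes lower and higher, and 1171 to 2642 and 1874 to 3380 of all genes. The differences in log2 ratio then ran from -3.93 to -3.39 (Aldh1l1 to Aldh1l2), from 4.02 to 4.53 (Aldh1a2 to Aldh1a1) and from 0.03 to 0.49 (Aldh1a1 to Aldh1l1). Without a whole astrocyte library the first and second could reach no adjusted p below 0.0536, and against endfeet libraries 4 to 6 alone, where they were -3.41 and 4.07, none below 0.15.

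With the replicate number as a block, a replicate pairing that nothing in the data bears out (mean correlation of deviations 0.0065 in 3 same-numbered pairs and -0.0011 in 15 others), 4459 genes were called in place of 4997 and no member's call changed. The mean differences of the 3 same-numbered pairs were -3.95, 4.39 and 0.48 in log2 ratio, with no test that could pass. Without endfeet library 1 or 6, the shallowest, 6022 and 5744 genes were called, and without 1 whole astrocyte library 3071 to 3160.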
